A study of Mus musculus with 10 samples.

Results

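The 10 genes described here encode the matrix of cartilage: Col2a1 (type II collagen), Col9a1, Col9a2 and Col9a3 (type IX collagen), Col11a1 and Col11a2 (type XI collagen), Acan (aggrecan), Comp (cartilage oligomeric matrix protein), Matn1 and Matn3 (matrilins). They were chosen by name out of 41388 genes listed in the deposited files, and all 10 were found. The RNA came from whole ears of 10 C57Bl/6 mice, with 1 library per mouse, and the tissue is labelled skin. The 4 Littermate mice are labelled WT. For the 6 Experimental mice the sources disagree: the series text gives NaV1.8+ Il4raF/F and the genotype label gives NaV1.8+ Jak1F/F, so the group is called Experimental and the floxed gene is not settled here. NaV1.8 is a voltage-gated sodium channel found mainly in nociceptors and itch neurons, and the labels name no Cre line. MC903 (calipotriol, which acts on the vitamin D receptor and inflames the skin) was applied to both groups at 1 nM daily for 12 days, so that every value below is from treated skin. The labels name neither age nor sex.

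The mouse ear is a sheet of elastic cartilage with skin on both faces, so RNA from a whole ear carries chondrocyte transcripts beside those of epidermis, dermis, muscle and fat. In cartilage, type II collagen forms the fibril, type XI collagen lies within it and sets its width, and type IX collagen decorates its surface. Aggrecan holds water between the fibrils, and COMP and the matrilins bridge fibrils and proteoglycans. The transcription factor SOX9 drives many of these genes, and is also a factor of hair follicle stem cells. Col11a1, Comp and Acan are made outside cartilage as well, by fibroblasts, tendon cells or cells around hair follicles.

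Total counts ran from 11520348 to 41935183 per library, and the 2 deepest libraries, at 36911819 and 41935183, were Experimental 2 and 3. A count of 3 was worth 0.0715 to 0.260 CPM (counts scaled to the library total), a limit that covers counting error only. Each library is 1 mouse, so p-values measure the spread between these mice, for which no litter or cage is named. Chondrocyte transcripts were present: besides the genes above, Hapln1 (link protein), Cnmd (chondromodulin), Snorc and Ucma averaged 2.45, 12.3, 11.9 and 10.7 RPKM over the 10 libraries (CPM per kilobase of gene, the scale on which genes of different length can be compared). Matn1 was the exception, with 7 counts in all. A lower level in bulk RNA can come from fewer chondrocytes in the sample or from less RNA per chondrocyte, which cannot be told apart.

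On the length-corrected scale, Acan at 22.3 and Comp at 21.8 mean RPKM stood highest, and their order held in 6 of 10 libraries. Col9a3 followed at 7.10 RPKM and lay below Comp in 10 of 10 libraries. Col11a1 (5.41 RPKM), Col11a2 (4.64), Col9a2 (3.83), Col2a1 (3.26) and Col9a1 (3.24) formed a narrow group. Within it Col2a1 and Col9a1 could not be ranked: the mean log2 ratio of their RPKM was -0.07 with an SD of 0.69 (n = 10), and Col2a1 was the higher in 4 of 10 libraries. Col2a1 was mostly the higher in Littermates and mostly the lower in Experimental mice, with Littermate 2 and Experimental 6 the other way. Col2a1 over Col9a1 RPKM was 1.55, 0.879, 1.27 and 2.03 in Littermates 1 to 4 and 0.900, 0.525, 0.432, 0.920, 0.745 and 1.29 in Experimental 1 to 6. The orders of Col11a1 over Col11a2 (7 of 10 libraries) and of Col9a2 over Col2a1 (6 of 10) also lay within their spread. Matn3 stood far lower at 0.669 RPKM, and Matn1 at 0.0181 RPKM was below the level of 3 counts in every library.

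**Figure D1:**
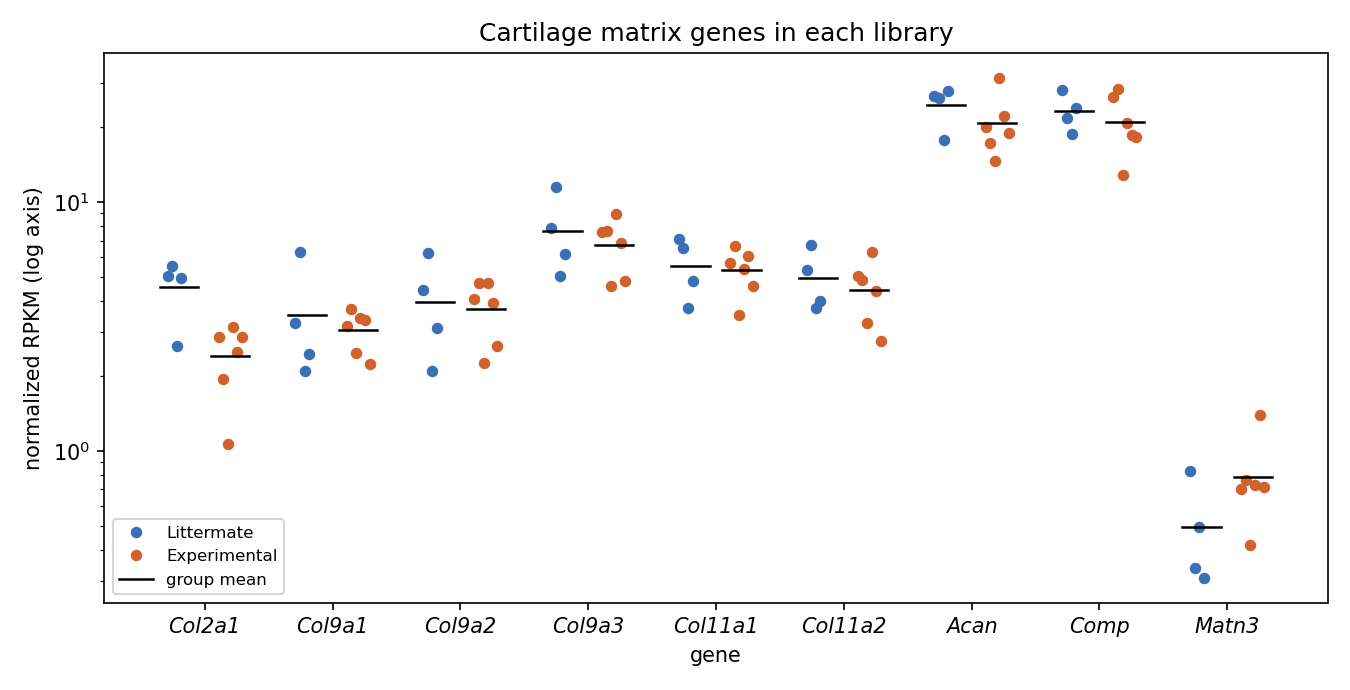
Normalized RPKM on a log axis for 9 of the 10 genes, 1 point per library (4 Littermate in blue, 6 Experimental in orange), with black bars at group means; Matn1 is left out because several libraries had 0 counts. Acan and Comp stand highest, Matn3 lowest, and the groups overlap for every gene shown.

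None of the 10 genes passed the test between groups. Of 16830 genes tested with edgeR, 3 passed at an adjusted p under 0.05, which is 0.0178%, and the count among the 9 cartilage genes that passed the filter on low counts was 0. At an unadjusted p under 0.05 by edgeR there was 1 of 9 (Col2a1, lower), against 11.8% of all tested genes in either direction and 8.1% lower. The groups overlapped for all 9: they were apart for 2.12% of all tested genes, and all 6 Experimental mice were below all 4 Littermates for 1.35%. By limma voom 0 of 9 were called, and by DESeq2 0 of the 8 to which it gave an adjusted p (none for Matn3). Log2 fold changes (Experimental over Littermate) were below 0 for 8 of the 9, against 50.4% of all tested genes, and their median was -0.17, against -0.00 over all tested genes. That direction rested on 1 library: without Littermate 2 the median was 0.03 and 3 of 9 were below 0, and all 5 chains of types IX and XI collagen turned positive.

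Col2a1 (ENSMUSG00000022483, mm10 chromosome 15, 97975602 to 98004695, minus strand) encodes the chain of the main cartilage fibril. It had 30.3, 33.3, 15.9 and 29.7 normalized CPM in Littermates 1 to 4. In Experimental 1 to 6 it had 17.2, 11.7, 6.41, 18.8, 15.01 and 17.3 CPM. Littermates 1, 2 and 4 were thus above every Experimental mouse, while Littermate 3 lay among them. The means were 27.3 ± 7.76 CPM (SD, n = 4) and 14.4 ± 4.63 CPM (SD, n = 6). The fitted log2 fold change was -0.95 (SE 0.30, 95% interval -1.61 to -0.29, edgeR adjusted p = 0.255). The interval excludes 0 before adjustment, and the difference did not pass over all genes. Col2a1 was lowest in Experimental 3 and next lowest in Experimental 2, the deepest libraries, and without both it stood at -0.67 (edgeR, adjusted p = 0.541). Its level and the log2 total count had r = -0.78 over the 10 libraries, and the part of depth in the group difference was not tested.

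The chains of type IX collagen join as a trimer on the fibril surface. Col9a1 (ENSMUSG00000026147, chromosome 1, 24177610 to 24252684) had 16.5, 32.0, 10.6 and 12.4 CPM in Littermates 1 to 4 and 16.1, 18.8, 12.5, 17.3, 17.0 and 11.3 CPM in Experimental 1 to 6. Littermate 2 held the highest value and Littermate 3 the lowest, so the Littermates enclosed all Experimental mice. The fit put it at -0.21 on the log2 scale (95% interval -0.84 to 0.43, edgeR adjusted p = 0.8285). Col9a2 (ENSMUSG00000028626, chromosome 4, 121039385 to 121055322) had 13.7, 19.4, 6.46 and 9.65 CPM in Littermates and 12.6, 14.7, 7.01, 14.7, 12.1 and 8.19 CPM in Experimental mice. The pattern was that of Col9a1, with all 6 Experimental values inside the Littermate range and a fit of -0.10 on the log2 scale (edgeR, adjusted p = 0.931). Col9a3 (ENSMUSG00000027570, chromosome 2, 180597790 to 180622189) had 30.2, 44.1, 19.4 and 23.9 CPM in Littermates and 29.1, 29.6, 17.6, 34.5, 26.4 and 18.5 CPM in Experimental mice. Only Experimental 3 and 6 lay below the Littermates, and the fit gave -0.19 (edgeR, adjusted p = 0.824). Of its exonic bases 234 overlap Tcfl5 on the opposite strand. No strand marking is described, and Tcfl5 had 664 counts against 4972 for Col9a3, so the reads shared there cannot be assigned.

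Type XI collagen is built from the products of Col11a1 and Col11a2, with a chain from Col2a1 as partner. Col11a1 (ENSMUSG00000027966, chromosome 3, 114030540 to 114220718) had 68.5, 63.1, 36.2 and 46.4 CPM in Littermates 1 to 4 and 54.8, 64.6, 34.0, 52.2, 58.4 and 44.3 CPM in Experimental 1 to 6. The lowest values were again those of Experimental 3 and Littermate 3. The fit gave -0.06 (95% interval -0.52 to 0.39, edgeR adjusted p = 0.937). Col11a2 (ENSMUSG00000024330, chromosome 17, 34039437 to 34066685) had 36.5, 46.0, 25.6 and 27.4 CPM in Littermates and 34.3, 33.1, 22.3, 43.0, 30.0 and 18.9 CPM in Experimental mice. Littermate 2 was highest and Experimental 6 lowest, and the fit gave -0.17 (edgeR, adjusted p = 0.83).

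Acan (ENSMUSG00000030607, chromosome 7, 79053483 to 79115099) encodes the large proteoglycan that gives cartilage its resistance to pressure. It had 197, 192, 130 and 205 CPM in Littermates 1 to 4 and 148, 127, 108, 232, 163 and 140 CPM in Experimental 1 to 6. Experimental 4 held the highest value of all and Experimental 3 the lowest, so the groups overlapped throughout. The means were 181 ± 34.4 CPM (SD, n = 4) and 153 ± 43.0 CPM (SD, n = 6), and the fit gave -0.25 (95% interval -0.69 to 0.19, edgeR adjusted p = 0.675). As for Col2a1, its level was lower where the total count was higher (r = -0.78 with the log2 total, 10 libraries), and for the other 8 genes that r lay between -0.36 and 0.12.

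Comp (ENSMUSG00000031849, chromosome 8, 70373548 to 70382065) encodes a pentameric protein that binds collagen fibrils in cartilage and tendon. It had 68.3, 52.9, 45.6 and 57.8 CPM in Littermates and 64.3, 69.2, 31.2, 50.1, 44.9 and 44.1 CPM in Experimental mice. Experimental 2 was highest and Experimental 3 lowest, and the fit gave -0.15 (edgeR, adjusted p = 0.831). Matn3 (ENSMUSG00000020583, chromosome 12, 8947929 to 8972028) encodes a matrilin of cartilage and was the only tested member with a positive log2 fold change. It had 32, 14, 21 and 12 counts in Littermates, or 2.50, 1.02, 1.49 and 0.934 CPM. In Experimental mice it had 2.13, 2.29, 1.26, 2.20, 4.19 and 2.15 CPM, with Experimental 5 the highest. The fitted value of 0.61 had a 95% interval of -0.13 to 1.34 (edgeR, adjusted p = 0.523), and Littermate 1 lay above all Experimental mice but 1. Matn1 (ENSMUSG00000040533, chromosome 4, 130944385 to 130955475), the other matrilin, had 0, 1, 0 and 2 counts in Littermates and 1, 2, 1, 0, 0 and 0 in Experimental mice. It was thus detected in 5 of 10 libraries, at 1 or 2 counts. It did not pass the filter and no fold is given.

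**Figure D2:**
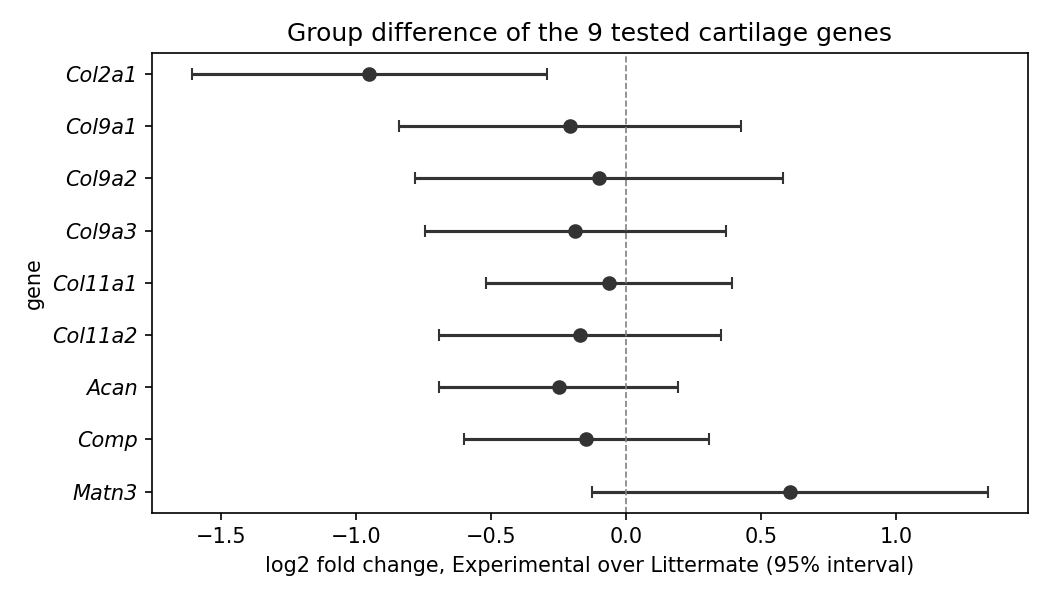
Log2 fold change of Experimental over Littermate with its 95% interval for the 9 tested genes (edgeR, 4 and 6 libraries). The interval of Col2a1 lies below 0 before adjustment for multiple tests, and those of the other 8 genes include 0.

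The summed RPKM of the 10 genes gives their joint level in each library. It was 88.7, 91.2, 56.3 and 77.7 in Littermates 1 to 4 and 75.7, 76.2, 45.1, 84.8, 69.2 and 57.8 in Experimental 1 to 6. Low and high libraries occurred in both groups: Experimental 3, Littermate 3 and Experimental 6 were the lowest and Littermates 2 and 1 the highest. The means were 78.5 ± 15.9 (SD, n = 4) and 68.1 ± 14.4 (SD, n = 6), a difference of -10.3, which is smaller than the SD of either group. Without Col2a1 the difference was -8.19, and without Comp and Col11a1 it was -7.86. Acan and Comp made up 52.6% to 66.6% of the sum, so it mostly follows these genes. Both are also made outside cartilage, so the sum does not measure cartilage alone.

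The members varied together in a graded way. Over the 10 libraries the 45 pairs had a median Pearson r of 0.51 on log2 CPM, from -0.65 to 0.97. The 5 chains of types IX and XI collagen formed the tightest set, with r from 0.72 to 0.97 over their 10 pairs and a median of 0.90. The closest pair was Col9a2 with Col9a3, at r = 0.97 and rho = 0.93 (permutation, adjusted p = 0.00045 and 0.0064 over 45 pairs), and r was 0.97 without the 2 libraries farthest from the median of Col9a2. Col9a3 with Col11a2 had r = 0.96 and rho = 0.98 (permutation, adjusted p = 0.00045 and 0.0009), and 0.96 without the 2 farthest libraries. Among the 6 Experimental libraries alone these pairs had r = 0.98 and 0.97, and after centring on group means 0.98 and 0.96. In all, 11 of the 45 pairs passed by Pearson and 9 of these also by Spearman (permutation, adjusted p under 0.05), of which 9 of the 11 joined 2 chains of types IX and XI. The pair that missed was Col11a1 with Col11a2, at r = 0.72 (permutation, adjusted p = 0.0729). Beyond these chains, Col11a1 went with Comp (r = 0.77) and Col2a1 with Acan (0.82). These pair tests were added after the values were seen, and the pairs share their libraries.

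**Figure D3:**
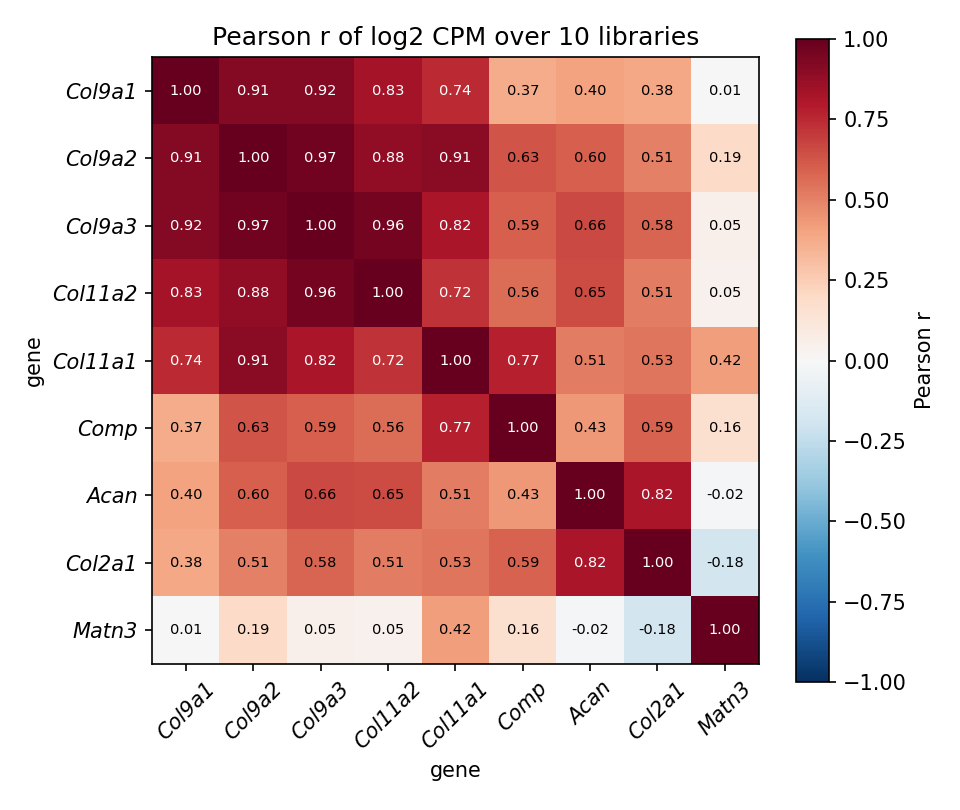
Pearson r of log2 CPM over the 10 libraries for each pair of the 9 tested genes, red for positive and blue for negative values. The chains of types IX and XI collagen form a block at 0.72 to 0.97, Col2a1 and Acan pair at 0.82, and Matn3 lies between -0.18 and 0.42 with the other genes.

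Col2a1 stood closer to Acan than to the other collagens. With Acan it had r = 0.82 and rho = 0.79 (permutation, adjusted p = 0.0392 and 0.0623 over 18 relations), 0.72 without the 2 libraries farthest from its median (Experimental 3 and Littermate 2), and 0.77 among the 6 Experimental libraries alone (exact permutation, p = 0.0944). With the type IX and XI chains its r lay between 0.38 and 0.58 and 0 of the 5 passed (permutation, adjusted p = 0.193 to 0.402), and without the same 2 libraries it ran from -0.21 to 0.10. Experimental 3 and Littermate 2 hold the lowest and highest Col2a1 values, so leaving them out also narrows its range. After centring on group means, r with these chains was 0.44 to 0.68, and r with Acan was 0.83. Hapln1, whose protein links aggrecan to hyaluronan, went with Col2a1 at r = 0.77 and rho = 0.79 (permutation, adjusted p = 0.0455 and 0.0623), and at 0.56 without the 2 libraries. Its r was 0.87 among the 6 Experimental libraries alone (exact permutation, p = 0.0153, adjusted p = 0.188) and 0.89 after centring on group means. Eln, which encodes elastin, had r = 0.77 and rho = 0.78 (permutation, adjusted p = 0.0392 and 0.0623), and 0.39 among the Experimental libraries. The log2 total count was as closely related, at r = -0.78 and rho = -0.52 (permutation, adjusted p = 0.0392 and 0.399), and at -0.22 without the 2 deepest libraries, while Acan then stood at 0.63 and Hapln1 at 0.47. Genes of the other ear tissues did not pass: r was 0.17 for Acta1 (skeletal muscle), -0.20 for Adipoq (fat), 0.44 for Col1a1 (fibroblasts) and 0.20 for Krt14 (basal keratinocytes), with permutation adjusted p from 0.333 to 0.617. Without Experimental 3 and Littermate 2, however, r with Col1a1 was 0.94, above that of Acan (permutation, adjusted p = 0.0723 and 0.224), while among the Experimental libraries alone it was -0.37. The 4 Pearson calls lay near the threshold. With 1 library left out, that of Acan was lost in 7 of 10 omissions, Eln in 7, Hapln1 in 8 and the total count in 8. The highest adjusted p were 0.168, 0.168, 0.312 and 0.292 (exact permutation), each without Experimental 3. In these omissions r ran from 0.72 to 0.94 for Acan and 0.72 to 0.85 for Eln. It ran from 0.56 to 0.88 for Hapln1 and from -0.86 to -0.57 for the total count. Without the 2 deepest libraries none of the 4 passed.

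Ratios of Col2a1 to 3 other cartilage genes of the same library were taken because Col2a1 was the lower in Experimental mice, so they describe that difference and carry no test. The log2 ratio of Col2a1 to Acan RPKM averaged -2.47 ± 0.21 (SD) over the 4 Littermates and -3.16 ± 0.38 (SD) over the 6 Experimental mice. The ranges were -2.74 to -2.24 and -3.78 to -2.72, and only Experimental 6 overlapped the Littermates. The ratio to Col11a1 averaged -0.30 and -1.20, with no overlap between the groups, and the ratio to Col9a1 averaged 0.45 and -0.41, with overlap. Col2a1 did not pass in the fits over all genes with a covariate: it stood at -0.90 with the mean log2 CPM of the other 8 tested members (edgeR, adjusted p = 0.165) and at -0.59 with Acan (edgeR, adjusted p = 0.467).

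**Figure D4:**
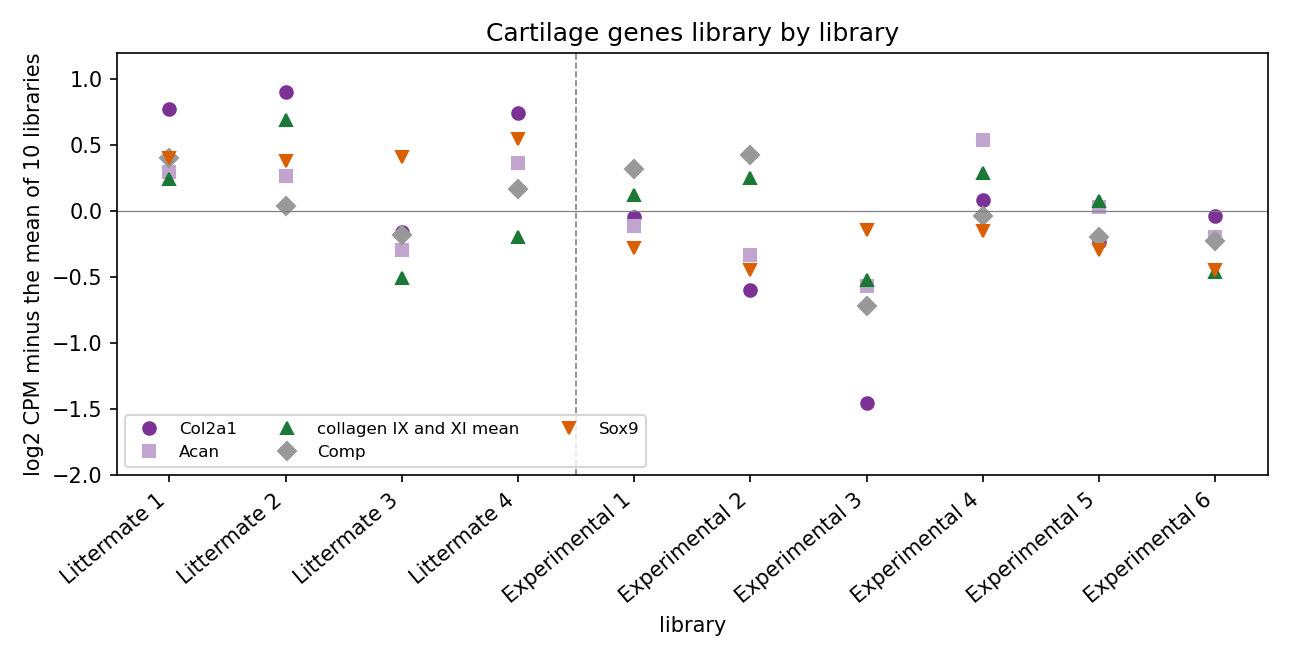
Log2 CPM minus the mean of 10 libraries for Col2a1, Acan, Comp, Sox9 and the mean of the 5 type IX and XI chains, library by library (Littermates left of the dashed line). Col2a1 reaches -1.45 in Experimental 3, where the collagen mean is -0.52, and Sox9 is positive in all 4 Littermates and negative in all 6 Experimental libraries.

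The collagen IX and XI chains are the set that varied most closely together between mice, so the sequences in front of 3 of them are shown, with that of Acan, whose r with these chains was at most 0.66. Promoter windows of 250 bases before to 50 bases after a start (RefSeq, GRCm38.p6, all plus strand) were found for 7 of the 10 genes, 8 windows in all. Some of these starts differ from those of the counted genes. The windows of Acan and Col11a2 end at 79053275 and 34039187, before the counted genes begin (79053483 and 34039437). The Col9a2 start lies inside its counted gene, which begins at 121039385. Capitals mark a GC box (GGGCGG) or a TATA box (TATAAA), on either strand.
Col9a1, upstream start, chr1:24177360-24177659: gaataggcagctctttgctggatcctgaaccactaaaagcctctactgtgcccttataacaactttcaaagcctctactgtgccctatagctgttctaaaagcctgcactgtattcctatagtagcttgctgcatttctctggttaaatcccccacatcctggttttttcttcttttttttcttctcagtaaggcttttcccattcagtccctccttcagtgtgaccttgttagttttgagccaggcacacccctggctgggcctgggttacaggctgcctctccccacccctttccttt
Col9a2, chr4:121039316-121039615: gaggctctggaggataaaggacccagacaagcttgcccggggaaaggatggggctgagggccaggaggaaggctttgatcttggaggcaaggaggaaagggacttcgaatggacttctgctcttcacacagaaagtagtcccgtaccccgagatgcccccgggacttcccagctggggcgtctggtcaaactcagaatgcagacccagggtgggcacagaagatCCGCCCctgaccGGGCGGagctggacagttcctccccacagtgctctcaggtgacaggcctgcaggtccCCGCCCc
Col11a2, chr17:34038888-34039187: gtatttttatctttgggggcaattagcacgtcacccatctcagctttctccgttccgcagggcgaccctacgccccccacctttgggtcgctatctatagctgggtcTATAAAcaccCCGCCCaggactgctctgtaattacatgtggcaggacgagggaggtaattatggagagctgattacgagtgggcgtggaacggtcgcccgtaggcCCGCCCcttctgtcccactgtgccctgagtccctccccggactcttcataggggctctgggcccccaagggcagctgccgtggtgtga
Acan, chr7:79052976-79053275: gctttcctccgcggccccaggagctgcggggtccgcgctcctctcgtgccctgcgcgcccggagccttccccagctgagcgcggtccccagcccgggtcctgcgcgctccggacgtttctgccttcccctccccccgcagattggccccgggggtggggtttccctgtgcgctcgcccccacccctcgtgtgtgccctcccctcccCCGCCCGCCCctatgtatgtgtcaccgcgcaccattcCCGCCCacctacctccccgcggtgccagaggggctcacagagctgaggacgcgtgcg

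The 4 windows differed in composition: G and C made up 47.3% of the Col9a1 window, 61.7% of Col9a2, 59.0% of Col11a2 and 74.0% of Acan. The 32851 comparison windows of this length leave out 1 chromosome. A GC box stood in 6 of the 8 member windows, against 35.7% of the comparison windows, and in neither window of Col9a1. Its matches in Acan overlap each other in 1 place. The letters of a TATA box stood in 1 of 8 (Col11a2, first base at -143 from the start), against 13.6% of the comparison windows. The SOX core forms ACAAAG and ACAATG, searched on both strands, were in 0 of 8, against 28.6% of the comparison windows with either form. Forms with T as the first letter, such as TCAAAG in the upstream Col9a1 window, were not searched. These are matches of letters in a short window, and cartilage genes are known for SOX9-bound enhancers that lie outside it.

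Sox9 (chondrocyte and hair follicle transcription factor) fell by 0.73 on the log2 scale (SE 0.09, edgeR adjusted p = 0.0033). DESeq2 called it too (adjusted p = 3.2e-10), along with 1.38% of all tested genes. Of 15 tested chondrocyte regulators Sox9 was the 1 that passed by edgeR, against 0.0178% of all tested genes. An unadjusted p under 0.05 by edgeR was held by 2 of the 15, against 11.8% of all tested genes, and the median was -0.11. With the mean of the 9 tested cartilage genes as a covariate Sox9 stood at -0.74 (edgeR, adjusted p = 0.0049), and with Col2a1 as the covariate at -0.77 (edgeR, adjusted p = 0.143), where the call was lost. Sox9 and Col2a1 had r = 0.62 and rho = 0.48 over the 10 libraries (permutation, adjusted p = 0.192 and 0.404) and -0.19 after centring on group means. The runt factors Runx3 and Runx2 stood at -0.49 and -0.23 (edgeR, adjusted p = 0.345 and 0.432). Runx3 passed without Littermate 2 and Experimental 6 (-0.79, edgeR adjusted p = 0.00714). That setting was added after seeing the data and called 3.34% of all tested genes. In Experimental 6 Runx3 stood at 15.04 CPM, against 7.64 to 8.81 in the other Experimental mice.

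Of 22 tested genes of the other cartilage matrix list 0 passed by edgeR, 4 had an unadjusted p under 0.05 (the share over all tested genes was 11.8%), and the median log2 fold change was -0.09. Cytl1, a secreted protein of chondrocytes, was the most abundant at 661 mean RPKM. It had 647 ± 184 CPM in Littermates (SD, n = 4) and 641 ± 92.2 CPM in the Experimental group (SD, n = 6), and the fit gave -0.02. The lowest p belonged to Cilp, a protein of the cartilage intermediate layer and of dermis, at -0.33, and to Prelp, a leucine-rich matrix protein, at -0.46 (edgeR, adjusted p = 0.108 and 0.212). Prelp passed without Littermate 2 (-0.58, edgeR adjusted p = 0.022), where 2.01% of all tested genes passed. Cilp, Prelp and Prg4 passed without Littermate 2 and Experimental 6 (edgeR, adjusted p = 0.0356, 0.0258 and 0.0369). That setting was added after seeing the data, and 3.34% of all tested genes passed in it. Pcolce2, an enhancer of collagen processing, stood at 0.16, Prg4 (lubricin) at -0.51, Chadl at -0.41, Chad at -0.32 and Fmod at -0.25. Hapln1 stood at -0.11, Cnmd at 0.14, Snorc at 0.01, Ucma at 0.23, Col10a1 (type X collagen of mature chondrocytes) at 0.01 and Col27a1 (a fibrillar collagen of cartilage) at -0.20. Susd5, Cilp2, Clec3a, Matn4, Vit, Epyc and Matn2 lay between -0.26 and 0.17.

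Among 23 tested genes of matrix assembly and turnover 0 passed, 5 had an unadjusted p under 0.05 (11.8% over all genes), and the median was -0.09 (edgeR). Mmp13, the collagenase that cuts type II collagen, averaged 26.7 ± 10.1 CPM (SD) over the 4 Littermates and 64.4 ± 13.3 CPM (SD) over the 6 Experimental mice, and the fit gave 1.26 (edgeR, adjusted p = 0.0895). The chondroitin synthase Chsy1 stood at -0.26 and the crosslinking enzyme Lox at -0.27. Of 12 elastic fibre genes 0 passed, 3 had an unadjusted p under 0.05 (11.8% over all genes) and 11 were below 0 (50.4% over all genes), with a median of -0.19 (edgeR). Fbn2 (fibrillin) stood at -0.68, Loxl1 (an elastin crosslinker) at -0.65 and Eln at -0.48 (edgeR, adjusted p = 0.107, 0.235 and 0.307). Of the matrix genes named so far, DESeq2 called Cilp, Mmp13, Fbn2 and Loxl1 (adjusted p = 0.014, 9.4e-06, 0.00597 and 0.0407). It called 1.38% of all tested genes. By edgeR, Mmp13 and Loxl1 passed without Littermate 2 (adjusted p = 0.0214 and 0.0322) and Fbn2 without Littermate 3 (0.0202). Those settings called 2.01% and 0.0471% of all tested genes.

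No marker of the other tissues of the ear passed with all 10 libraries and the filter on low counts (edgeR). Summed RPKM of the 10 fibroblast markers ran from 1748 to 2443 in Littermates and from 1757 to 2093 in Experimental mice. Col5a1, Col1a1 and Col1a2, named for their low p, stood at -0.49, -0.53 and -0.41. Of the 10 markers 7 were below 0 and 3 above (Dpt at 0.13, Dcn at 0.03 and Lum at 0.02). The 9 tendon and perichondrium markers summed to 205 to 229 and to 165 to 223 RPKM, with Mkx at 0.50, Thbs4 at -0.49 and Tnmd at -0.32. The 7 bone markers summed to 1.09 to 3.02 and to 1.69 to 3.19 RPKM, and only Ibsp (0.60) and Alpl (-0.29) could be tested. Skeletal muscle summed to 1431 to 3420 and to 1619 to 2270 RPKM, with Tnnc2 at -1.48, Myh1 at -0.47 and Acta1 at -0.58. Tnnc2 was scarce, with means of 2.26 CPM in Littermates and 0.863 CPM in Experimental mice. Of the 10 muscle markers 7 were below 0 and 3 above (Actn3 at 0.12, Pvalb at 0.10 and Myh4 at 0.05). Fat markers summed to 357 to 1090 and to 565 to 840 RPKM, with Lep at 0.50, Retn at -0.28 and Lpl at -0.16. Keratinocyte sums ran from 15184 to 17868 and from 14303 to 17892 RPKM, and hair follicle sums from 407 to 545 and from 441 to 680 RPKM. Keratinocyte genes (Lor at -0.57, Dsg1a at 0.08, Krtdap at 0.03) and hair follicle genes (Krt75 at 0.62, Lhx2 at -0.33, Tchh at 0.40) also did not pass (edgeR). DESeq2 called Krt75 (adjusted p = 0.0245), along with 1.38% of all tested genes. The number with an unadjusted p under 0.05 by edgeR was 3 of 10 fibroblast, 3 of 9 tendon, 0 of 2 bone, 3 of 10 muscle, 0 of 8 fat, 1 of 7 keratinocyte and 1 of 7 hair follicle genes, against 11.8% of all tested genes. With no filter Tnnc2 was called (edgeR, adjusted p = 0.0457), along with 0.264% of all tested genes. Without Littermate 2 and Experimental 6, Col5a1 (-0.64), Mkx (0.66) and Alpl (-0.71) were called (edgeR, adjusted p = 0.0466, 0.0244 and 0.0497). That setting was added after seeing the data and called 3.34% of all tested genes. Median log2 fold changes were -0.10 for fibroblast, -0.07 for tendon, 0.15 for bone, -0.25 for muscle, -0.16 for fat, 0.00 for keratinocyte and 0.40 for hair follicle markers. The 11 tested genes of the chondrocyte marker list, which shares members with the 10 genes, had a median of -0.11 and 0 that passed, and summed to 64.5 to 110 and to 55.7 to 102 RPKM. Their part in the values of the cartilage genes was not tested.

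The genes whose pattern over the 10 libraries was most like the mean of the 9 tested cartilage genes were found among 14387 genes that averaged 1 CPM or more in a group. The 15 nearest were Timp3 (r = 0.95), an inhibitor of matrix proteases, Pam (0.95), an enzyme of peptide amidation, Susd5 (0.93), Col27a1 (0.93), Qrich2 (0.92), Meltf (0.92), Wwp2 (0.91), a ubiquitin ligase that works with SOX9 in cartilage, Sil1 (0.91), Gria1 (0.90), Hist1h2ai (0.90), Chtf18 (0.90), Itih5l-ps (0.89), Mterf4 (0.89), Mfge8 (0.89) and Corin (0.88). Of these, 4 belonged to the lists of cartilage matrix, regulators and turnover (Timp3, Susd5, Col27a1 and Wwp2). Within the nearest 100 genes lay 9 of the 21 ranked genes of the other cartilage matrix list: Susd5, Col27a1, Cilp2, Cytl1, Snorc, Cnmd, Clec3a, Col10a1 and Hapln1, along with Sox5 and Wwp2 of the regulators. The other cartilage matrix list had a median r of 0.61, against -0.01 over all ranked genes. The regulators and the turnover list had lower medians, 0.14 and 0.20. Median r was 0.02 for fibroblast, 0.33 for tendon, 0.27 for hair follicle, -0.16 for muscle, -0.58 for fat and -0.05 for keratinocyte markers. None of these lists of other tissues had a gene among the nearest 100. The tendon and hair follicle medians stood above those of the regulators and the turnover list. Sox9 ranked far down, at r = 0.14. These values describe the same 10 libraries, which also share their depth and their dilution by other tissues, and carry no test.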

How the data were processed

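Total RNA of whole ears was depleted of ribosomal RNA, fragmented and primed with random hexamers for cDNA, and sequenced as 50-base single reads, per the labels' protocols. STAR 2.0.4b, Subread and featureCounts 1.4.5 with the mm10 genome made the read counts, per the submitters' processing notes. Not given in the sources used here: annotation release, strand setting and multi-mapping. The deposited counts entered all tests. The CPM values the authors deposited equal the count scaled by the library total, and the deposited RPKM equal that CPM per kilobase of gene length.

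Symbols were matched to 97.3% of identifiers. No window of 50 bases in a member's GENCODE M21 transcripts was identical in another gene. Differences were tested by edgeR 4.0.16 (TMM scaling, 0.984 to 1.02, filterByExpr, robust quasi-likelihood, two-sided, group only, Benjamini-Hochberg over 16830 genes). The SE is the log2 fold change over the square root of F. Printed CPM and RPKM use the TMM factors. Correlations used log2 CPM with a prior count of 2, and 100000 resamples with 10 libraries or all orders with fewer (SciPy 1.17.1, NumPy 2.4.6). Alternatives were other size factors, filters, DESeq2 1.42.0, limma 3.58.1 voom, GC correction by lowess, the replicate number as a block, covariates and left-out libraries. In simulated counts for this comparison (16682 genes), edgeR recovered 54 of 95 genes changed 1.5-fold (56.8%) and 85 of 101 changed 2-fold (84.2%). Of its 145 calls 6 were false. These rates cover the changed genes as a set and were not taken for the cartilage genes. The common spread between mice fitted by edgeR was 12.8%. For the tested cartilage genes the spread within groups, counting error included, was 23.7% (Comp) to 43.7% (Matn3) of the mean. The rates therefore do not say how often a change in a cartilage gene would be found.

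The members and lists were chosen with earlier results of these data known. Named were all members, up to 3 genes of lowest p per list, other cartilage matrix genes with at least 1 CPM in a group, and the 15 genes nearest in pattern. Flg, Krt85 and the older symbols Lect1 and 3110079O15Rik matched no identifier.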

Additional observations from a re-analysis of the deposited data

Results flagged for a closer look

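In 122 groups of 4 or 6 libraries, 8 held a library that stood apart from the rest of its group by the gap to its nearest neighbour relative to the range (Dixon's criterion), where chance gives about 1 in 20. Among the cartilage matrix genes this was Matn3 in Experimental 5, at 4.19 normalized CPM against 1.26 to 2.29 in the other 5. In Experimental 6 the value of Runx3 was 15.04 CPM against 7.64 to 8.81, that of Loxl1 56.1 CPM against 37.6 to 39.3, and that of Col5a1 271 CPM against 197 to 224. Chsy1 stood at 10.04 CPM in Experimental 5 against 11.6 to 12.0, and Matn4 at 9.53 CPM in Experimental 2 against 5.98 to 7.14. In Littermate 3 Eln stood at 85.3 CPM against 127 to 134, and in Littermate 2 Alpl stood at 3.29 CPM against 8.09 to 8.75.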

How the results depend on the processing

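No setting but the replicate block called a cartilage member. The number of all genes called moved from 3 to 78 with no filter, 233 by DESeq2, 60 with voom quality weights, 5 with the members' mean and 5 with the mean without Col2a1 as covariate, 1 with Col2a1 as covariate, and 563 without Littermate 2 and Experimental 6 (added after seeing the data). Leaving out 1 library gave 3 to 343 (343 without Littermate 2, 28 without Experimental 6, 8 without Littermate 3). Sox9 stood at -0.77 with Col2a1 as covariate, past the threshold no longer. The causes were not tested.

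The replicate numbers are not stated to pair mice, and same-numbered libraries deviated together by r = 0.03, -0.02, 0.09 and -0.02. Numbers 5 and 6 occur only in the Experimental group, so those libraries add nothing to the group difference in a block fit. With the number as a replicate block 67 genes were called, 1 of them a member (Col2a1, -1.08, edgeR adjusted p = 0.0322), and the sign turned for Col9a2 (0.028), Epyc (-1.12), Matn2 (-0.043) and Col10a1 (-0.049). Of the 4 Littermates, only number 3 correlated best with its own number.

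Other log2 fold changes near 0 turned sign: Cytl1 with library totals only (0.0011), voom (0.029), quality weights (0.076), GC correction (0.0041), without the 2 deepest libraries (0.068) and without Littermate 2 and Experimental 6 (0.17). Under voom so did Epyc (-0.46) and Col10a1 (-0.0057), and with quality weights Col9a1 (0.091), Col9a2 (0.15), Col11a1 (0.068), Krtdap (-0.024), Matn4 (0.076) and Epyc (-0.57). GC correction turned Col9a2 (0.058) and Cilp2 (0.021), and leaving out the 2 deepest libraries turned Dsg1a (-0.0053), Hapln1 (0.035) and Vit (-0.0044). Without Littermate 2 and Experimental 6 the turned values were Col9a1 0.32, Col9a2 0.29, Col9a3 0.16, Col11a1 0.070, Col11a2 0.12, Col27a1 0.041 and Epyc -0.17.

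Leaving out 1 library gave ranges that cross 0 for Col9a1 (-0.39 to 0.24), Col9a2 (-0.31 to 0.21), Col9a3 (-0.34 to 0.078), Col11a1 (-0.20 to 0.086), Col11a2 (-0.28 to 0.015), Lpl (-0.30 to 0.084), Krtdap (-0.052 to 0.12), Matn4 (-0.21 to 0.092), Epyc (-0.46 to 0.45), Cytl1 (-0.13 to 0.15), Matn2 (-0.016 to 0.040), Col10a1 (-0.068 to 0.12) and Snorc (-0.10 to 0.20), and for the members' median (-0.31 to 0.03). Col2a1 kept its sign throughout (-1.13 to -0.77). The summed RPKM differed by -17.7 to -5.74 and the median pair r was 0.34 to 0.61.

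Correlations with Col2a1 turned sign after centring on groups for Matn3 (0.31), Sox9 (-0.19) and Acta1 (-0.32), and among Experimental libraries for Matn1 (-0.28), Matn3 (0.59), Sox9 (-0.27), Adipoq (0.12) and Col1a1 (-0.37). Without the 2 libraries farthest from its median they turned for Col9a1 (-0.21), Col9a2 (-0.015), Cnmd (-0.36), Acta1 (-0.027), Adipoq (0.16) and Krt14 (-0.37), and without the 2 deepest for Acta1 (-0.19). With 1 library left out, r ran from -0.59 to 0.022 for Matn3, -0.10 to 0.39 for Cnmd, -0.52 to 0.16 for Adipoq and -0.077 to 0.31 for Krt14. Counts limit Matn1 and Matn3 most, and 4 against 6 mice leave wide intervals for every member.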
